A study of Mus musculus with 14 samples.

Results

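The results concern 10 genes of CD4+ T cells that are read together in studies of T cell restraint and exhaustion. They are 6 inhibitory surface receptors (Pdcd1, Ctla4, Lag3, Havcr2, Cd160 and Btla), the ectoenzyme gene Entpd1, the ligand gene Cd274, and the related transcription factor genes Tox and Tox2. They were taken by name from a table of reads per protein-coding gene, which held all 10 among its 22048 genes, and all 10 passed the filter on low counts that left 12343 genes for testing. RNA was sequenced from CD4+ T cells of mice on the C57BL/6 background with an IFN-g-YFP reporter, which marks cells that make the cytokine interferon-gamma; spleens and peripheral lymph nodes were the source, and the labels give no age. There were 3 libraries of YFPpos SGC0946 cells, 3 of YFPpos SGC0649 cells, 3 of YFPneg SGC0946 cells, 2 of YFPneg SGC0649 cells and 3 of uncultured naive cells sorted as CD44- CD62L+; all groups carried the reporter. Cultures began from enriched CD4+ cells, not from sorted naive cells, and were held for 4 days in Th1 conditions: coated antibodies to CD3 and CD28 (1 µg/ml), the cytokines IL-12 and IL-2 (10 ng/ml of each), and an antibody that blocks IL-4 (10 µg/ml). Every culture contained a compound at 1 µM. SGC0946 inhibits DOT1L, a methyltransferase of histones, and SGC0649 is its inactive control. Cells were then sorted by the reporter as positive (YFPpos) or negative (YFPneg). A Th1 culture without either compound, and YFPneg SGC0649 cells of number 63, were not analysed here. Libraries carry the numbers 91 to 93 with SGC0946 and 61 to 63 with SGC0649 (61 and 62 in YFPneg), and values below are given in that order. The design calls them biological replicates, but nothing in the sources used here says whether they came from separate animals, so p-values measure the spread between these libraries only.

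Inhibitory receptors sit on activated T cells and dampen signals from the T cell receptor or from costimulation. PD-1, encoded by Pdcd1, binds PD-L1, encoded by Cd274, on neighbouring cells, and the ectoenzyme CD39, encoded by Entpd1, starts the conversion of extracellular ATP towards adenosine, which also restrains T cells. All of them can appear after a single activation; their combined and lasting expression together with the HMG-box factor TOX marks exhausted T cells, as described best for CD8+ cells in chronic infection and tumours.

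Total counts ran from 14486577 to 31614057 per library. The level of a gene is given as CPM, its counts per 1000000 counts of the library after scaling by the TMM method. Ifng, the gene behind the reporter, averaged 645 ± 97.3 CPM in YFPpos SGC0946 cells, 737 ± 169 CPM in YFPpos SGC0649 cells, 66.8 ± 42.5 CPM in YFPneg SGC0946 cells, 33.8 ± 11.8 CPM in YFPneg SGC0649 cells and 0.0623 CPM in naive cells (SD). Dot1l, whose enzyme SGC0946 blocks without deleting the gene, averaged 177, 221, 221 and 254 CPM in those cultured groups in the same order. Library 92 of YFPpos SGC0946 stood apart in its unmapped reads, 3.61% against 7.58% and 8.12% in the others of its group, and library 93 of YFPneg SGC0946 had the smallest total count. The marker check held for CD4+ T cells: 5 T cell markers summed to 1590 to 2943 CPM in every library, and 5 B cell markers summed to at most 2.61 CPM. In bulk RNA, a smaller share of cells that express a gene and less of its RNA per cell cannot be told apart.

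In reporter-positive cells, SGC0946 came with more RNA of 4 of the 10 genes and less RNA of 4 others. Ctla4, Lag3, Havcr2 and Entpd1 were higher with SGC0946 than with SGC0649, and Cd160, Btla, Cd274 and Tox were lower, each at an adjusted p under 0.05 in edgeR's quasi-likelihood test over all genes. The same comparison called 27.7% of all genes, 12.1% higher and 15.7% lower. In reporter-negative cells 3 of the 10 genes were higher (Lag3, Havcr2 and Entpd1), and the other 7 were not called, of which Btla alone had an unadjusted p under 0.05; there the comparison called 8.63% of all genes, 4.99% higher and 3.64% lower. The difference between the sorts in the SGC0946 effect was itself called for Btla, Cd274 and Tox, with a background of 1.15% of all genes. Leaving out any single library left 4 members higher and 4 lower in YFPpos cells, while the number of all genes called there ranged from 1886 (without YFPpos SGC0649 library 63) to 3449, with 2004 without YFPpos SGC0946 library 92. In YFPneg cells it fell to 335 genes and 1 member, Entpd1, without YFPneg SGC0649 library 62, against 1065 genes with all libraries.

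**Figure D1:**
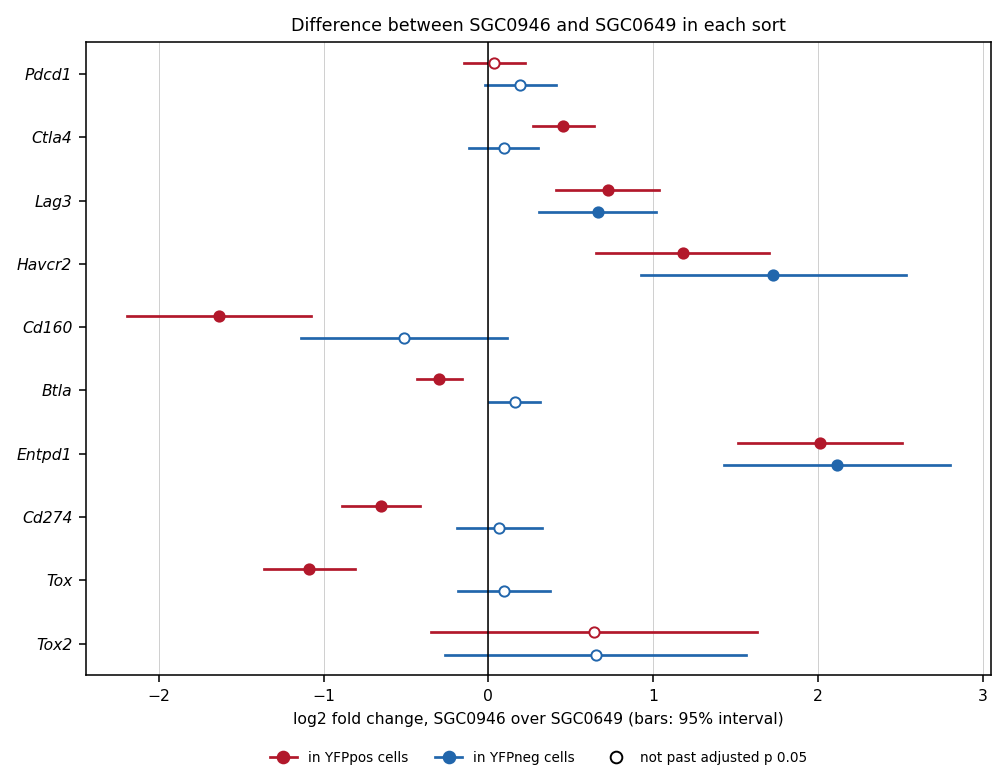
Log2 fold change of SGC0946 over SGC0649 (x axis) for each of the 10 genes (y axis), in YFPpos cells (red, upper of each pair) and YFPneg cells (blue), with 95% intervals; filled points passed an adjusted p of 0.05. Entpd1 lies near 2 in both sorts, and Tox lies at -1.09 in YFPpos cells and at 0.09 in YFPneg cells.

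Per kilobase of exon, Ctla4 and Lag3 were the most abundant of the 10 in each cultured group. In YFPpos SGC0946 cells they averaged 181 ± 10.6 and 139 ± 8.72 CPM per kb (SD, n = 3), followed by Btla at 43.6 ± 0.58 CPM per kb. In naive cells Btla led with 55.4 ± 0.21 CPM per kb, Cd274 followed with 13.2 ± 0.769 and Tox with 8.84 ± 0.429 CPM per kb (SD, n = 3). Tox2 was the lowest of the 10 in YFPpos cells with either compound and in YFPneg SGC0946 cells, Entpd1 in YFPneg SGC0649 cells and Havcr2 in naive cells. The levels therefore differed by the group: the naive cells carried mainly Btla among these genes, and the cultured cells mainly Ctla4 and Lag3.

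**Figure D2:**
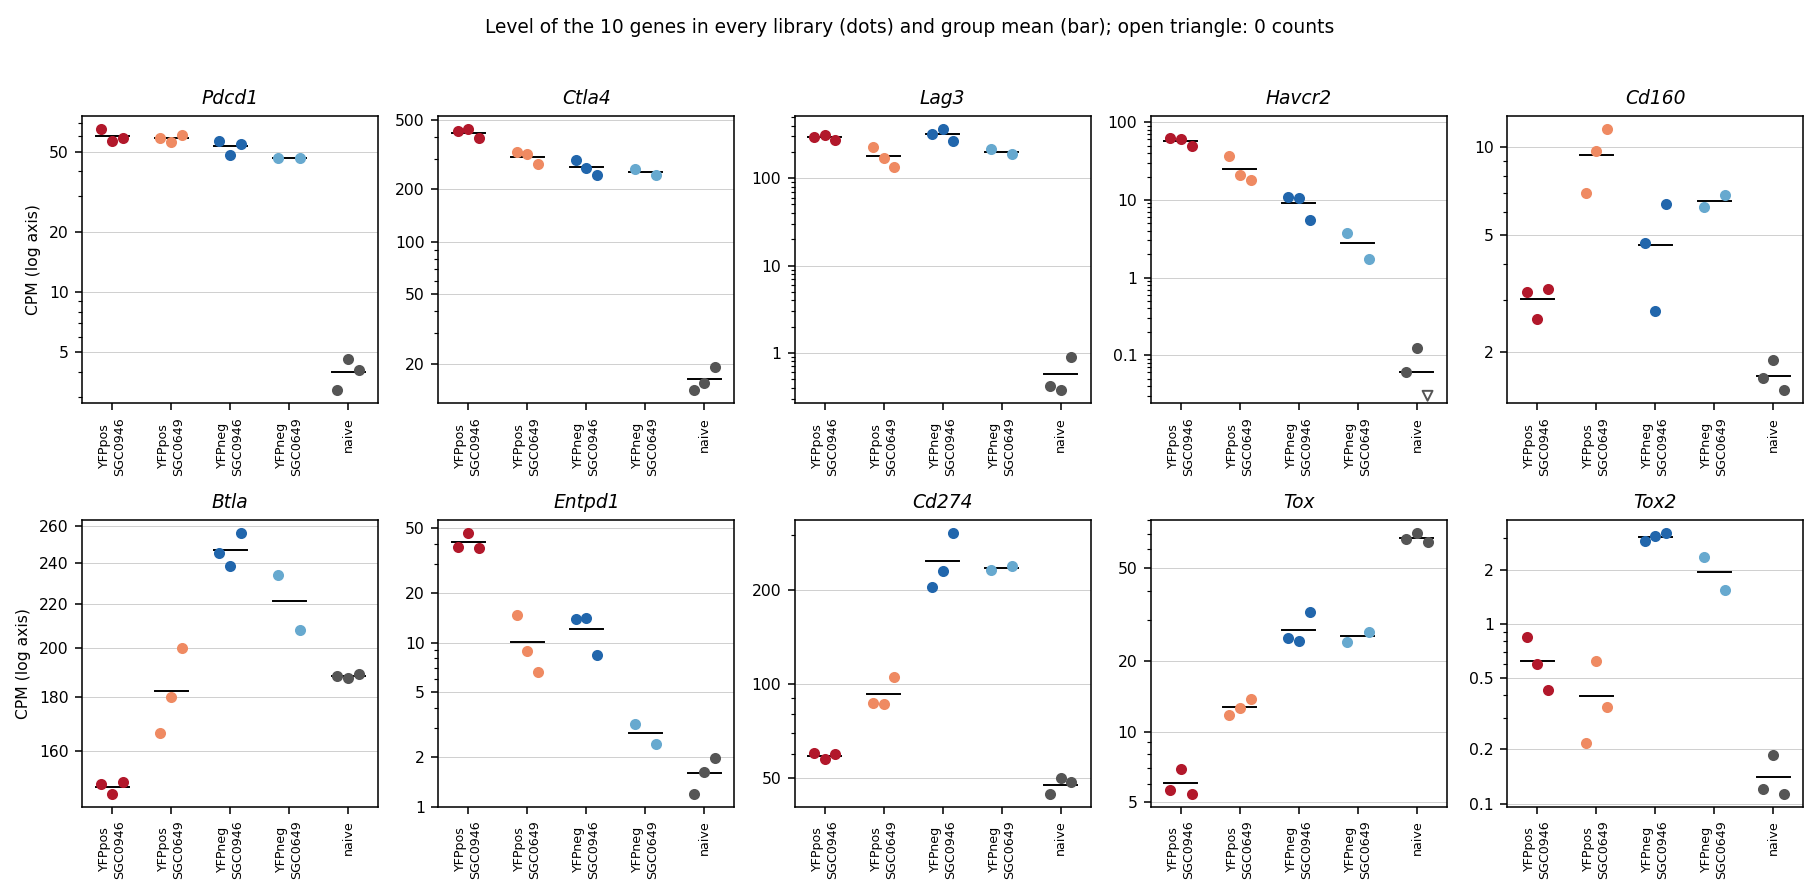
Level of each of the 10 genes in CPM (y axis, logarithmic, with its own range in each panel) in every library (dots) of the 5 groups (x axis), with the group mean as a bar and an open triangle for the naive library with 0 Havcr2 counts. The 3 YFPpos SGC0946 libraries of Entpd1 sit at 37.5 to 46.8 CPM, above all other libraries, and the naive libraries of Tox sit at 64.3 to 70.8 CPM, above all cultured ones.

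Pdcd1 encodes PD-1, the receptor of PD-L1 and PD-L2 (ENSMUSG00000026285, chromosome 1, 94038305 to 94052553, GRCm38). It stood at 65.0, 57.1 and 58.7 CPM in YFPpos SGC0946 libraries, 59.0, 56.2 and 61.0 CPM in YFPpos SGC0649 libraries, 56.9, 48.5 and 54.9 CPM in YFPneg SGC0946 libraries, 46.6 and 46.9 CPM in YFPneg SGC0649 libraries and 3.24, 4.61 and 4.08 CPM in naive libraries. All 11 cultured libraries were far above the naive ones, and the cultured groups lay close together, each of the highest 2 overlapping the next and the YFPneg SGC0649 libraries just below. The compound made no difference that the test could call: the log2 fold change of SGC0946 over SGC0649 was 0.04 (95% interval -0.15 to 0.22) in YFPpos cells and 0.19 (-0.02 to 0.41) in YFPneg cells. With SGC0649, YFPpos cells were 1.26-fold above YFPneg cells (edgeR adjusted p = 0.013), a call lost without either YFPneg library (adjusted p = 0.061 and 0.053). With SGC0946, the log2 difference between the sorts was 0.17 (-0.02 to 0.36; adjusted p = 0.11), and scaling by DESeq2's size factors instead of TMM brought it past the threshold (0.22, adjusted p = 0.043).

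Ctla4 encodes CTLA-4, which competes with CD28 for CD80 and CD86 (ENSMUSG00000026011, chromosome 1, 60887000 to 60915832). Its level was 431, 442 and 395 CPM in YFPpos SGC0946 libraries, 326, 317 and 281 CPM in YFPpos SGC0649 libraries, 295, 266 and 240 CPM in YFPneg SGC0946 libraries, 261 and 240 CPM in YFPneg SGC0649 libraries and 14.1, 15.6 and 19.2 CPM in naive libraries. The YFPpos SGC0946 libraries lay above all others without overlap, and the other cultured groups overlapped their neighbours in the order. SGC0946 over SGC0649 was 1.37-fold in YFPpos cells (log2 0.46, SE 0.09, edgeR adjusted p = 0.0013). In YFPneg cells the log2 difference was 0.09 (95% interval -0.12 to 0.30), and the test of the 2 effects against each other did not pass (difference 0.36, adjusted p = 0.23). YFPpos over YFPneg was 1.58-fold with SGC0946 (adjusted p = 8.6e-06) and 1.23-fold with SGC0649 (adjusted p = 0.022). That second call was lost without YFPpos SGC0649 library 61, YFPpos SGC0649 library 62 or YFPneg SGC0649 library 62 (adjusted p = 0.066, 0.065 and 0.15).

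Lag3 encodes LAG-3, a CD4-related receptor that binds MHC class II (ENSMUSG00000030124, chromosome 6, 124904361 to 124911705). It was at 293, 311 and 275 CPM in YFPpos SGC0946 libraries, 230, 170 and 133 CPM in YFPpos SGC0649 libraries, 320, 364 and 269 CPM in YFPneg SGC0946 libraries, 215 and 187 CPM in YFPneg SGC0649 libraries and 0.42, 0.374 and 0.907 CPM in naive libraries. The SGC0946 libraries were above the SGC0649 libraries of either sort, and the sorts overlapped within each compound. SGC0946 over SGC0649 was 1.65-fold in YFPpos cells (log2 0.72, SE 0.15, edgeR adjusted p = 0.0019) and 1.58-fold in YFPneg cells (log2 0.66, SE 0.17, adjusted p = 0.023). The YFPneg call was lost without YFPneg SGC0946 library 92, YFPneg SGC0649 library 61 or YFPneg SGC0649 library 62 (adjusted p = 0.059, 0.055 and 0.17). Between the sorts, the log2 difference of YFPpos from YFPneg was -0.12 (95% interval -0.43 to 0.19) with SGC0946 and -0.18 (-0.53 to 0.17) with SGC0649. Without YFPpos SGC0649 library 61, the highest of its group, YFPpos cells were lower with SGC0649 (-0.41, adjusted p = 0.021).

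Havcr2 encodes TIM-3, a receptor of differentiated Th1 cells (ENSMUSG00000020399, chromosome 11, 46454935 to 46481255). Its level was 62.0, 60.9 and 48.7 CPM in YFPpos SGC0946 libraries, 36.5, 21.2 and 17.95 CPM in YFPpos SGC0649 libraries, 10.95, 10.7 and 5.51 CPM in YFPneg SGC0946 libraries and 3.76 and 1.75 CPM in YFPneg SGC0649 libraries. Naive libraries held 1, 2 and 0 counts. The 4 cultured groups followed each other in that order without overlap, so that Havcr2 separated both the reporter sort and the compound. SGC0946 over SGC0649 was 2.26-fold in YFPpos cells (log2 1.18, SE 0.25, edgeR adjusted p = 0.0025) and 3.31-fold in YFPneg cells (log2 1.73, SE 0.38, adjusted p = 0.012), and the 2 effects did not differ past the threshold (-0.55, 95% interval -1.51 to 0.41). The YFPneg call was lost without YFPneg SGC0649 library 62, which had 34 counts (adjusted p = 0.13), with only these groups in the fit (0.05) and with limma-voom (0.089). YFPpos over YFPneg was 6.24-fold with SGC0946 (adjusted p = 4.6e-07) and 9.14-fold with SGC0649 (adjusted p = 2.7e-06).

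The promoter of Havcr2 is shown because the gene separated all cultured groups, those of Entpd1 and Cd160 because these genes had the largest compound differences, up and down, in YFPpos cells, and that of Cd274 as the ligand of PD-1. They are the 250 bases before a RefSeq start (GRCm38.p6), read 5′ to 3′ on the strand of the gene. Capitals mark matches to 2 motifs searched on both strands, the AP-1 motif TGANTCA and the T-box motif GGTGTGA, where N is any base.
Havcr2 (chr11:46454681-46454930, plus strand): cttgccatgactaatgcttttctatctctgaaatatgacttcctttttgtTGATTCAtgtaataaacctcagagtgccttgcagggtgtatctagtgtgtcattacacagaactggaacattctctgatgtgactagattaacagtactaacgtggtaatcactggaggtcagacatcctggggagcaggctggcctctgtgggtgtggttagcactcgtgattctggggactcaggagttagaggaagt
Entpd1 (chr19:40612116-40612365, plus strand): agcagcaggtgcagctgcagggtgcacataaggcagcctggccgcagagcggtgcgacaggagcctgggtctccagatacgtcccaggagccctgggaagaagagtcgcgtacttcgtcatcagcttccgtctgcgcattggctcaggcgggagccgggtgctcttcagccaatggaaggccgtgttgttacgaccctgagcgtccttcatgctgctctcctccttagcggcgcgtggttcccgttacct
Cd160 (chr3:96814522-96814771, minus strand): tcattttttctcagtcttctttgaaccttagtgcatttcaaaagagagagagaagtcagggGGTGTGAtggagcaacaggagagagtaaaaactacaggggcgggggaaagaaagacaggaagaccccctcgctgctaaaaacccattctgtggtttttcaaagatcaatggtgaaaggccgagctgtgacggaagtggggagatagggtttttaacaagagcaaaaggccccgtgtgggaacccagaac
Cd274 (chr19:29367188-29367437, plus strand): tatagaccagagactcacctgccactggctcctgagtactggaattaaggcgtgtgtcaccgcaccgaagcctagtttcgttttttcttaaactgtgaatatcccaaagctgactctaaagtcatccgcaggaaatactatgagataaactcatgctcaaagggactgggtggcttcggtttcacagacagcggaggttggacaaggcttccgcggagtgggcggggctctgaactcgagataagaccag
Havcr2 held 1 AP-1 match, beginning 200 bases before the start, and 6.75% of the 32851 RefSeq windows of this length hold one. Cd160 held a T-box match 189 bases before this start, which 3.33% of windows hold. RefSeq gives Cd160 another start (window chr3:96829352-96829601), with no match to any motif searched, and Entpd1 another (chr19:40659520-40659769) with 2 NFAT cores alone. The Cd160 window printed lies within the annotated gene and its other window just before the gene, and for Entpd1 this is the other way round. The shares are per window, not per gene. The Entpd1 and Cd274 windows printed held neither, nor the IRF pair (GAAA, any 2 bases, GAAA), which 2.98% of windows hold. The NFAT core GGAAA, found in 55.6% of windows, was present in Cd160 and Cd274 and is not marked. Such matches describe letters and are not measured binding.

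Cd160 encodes a receptor of HVEM that is shared with natural killer cells (ENSMUSG00000038304, chromosome 3, 96798763 to 96829351). It was a low gene, at 3.20, 2.58 and 3.28 CPM in YFPpos SGC0946 libraries, 6.99, 9.70 and 11.6 CPM in YFPpos SGC0649 libraries, 4.70, 2.75 and 6.42 CPM in YFPneg SGC0946 libraries, 6.25 and 6.89 CPM in YFPneg SGC0649 libraries and 1.62, 1.87 and 1.47 CPM in naive libraries. The YFPpos SGC0649 libraries were the highest and the naive ones the lowest, while the YFPneg SGC0946 libraries spread across both of their cultured neighbours. In YFPpos cells SGC0946 was 3.11-fold below SGC0649 (log2 -1.64, SE 0.26, edgeR adjusted p = 0.00034). In YFPneg cells the log2 difference was -0.51 (95% interval -1.13 to 0.11), and the difference between the sorts was -1.12 (-1.96 to -0.28; adjusted p = 0.22), which passed only without YFPneg SGC0946 library 92 (adjusted p = 0.049). YFPpos differed from YFPneg cells by -0.60 with SGC0946 (adjusted p = 0.072) and by 0.52 with SGC0649 (adjusted p = 0.15) on the log2 scale. Without that same library the first of these passed, at -0.87 (adjusted p = 0.0075). Pdzk1 overlaps Cd160 on the opposite strand, and reads were counted by strand.

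Btla encodes an inhibitory receptor that also binds HVEM (ENSMUSG00000052013, chromosome 16, 45224315 to 45257670). It varied least in fold of the 6 receptors, at 149, 146 and 150 CPM in YFPpos SGC0946 libraries, 166, 180 and 200 CPM in YFPpos SGC0649 libraries, 245, 239 and 257 CPM in YFPneg SGC0946 libraries, 234 and 208 CPM in YFPneg SGC0649 libraries and 188, 187 and 189 CPM in naive libraries. All YFPpos SGC0946 libraries were below, and all YFPneg libraries above, the naive range, which the YFPpos SGC0649 libraries straddled. SGC0946 was 1.23-fold below SGC0649 in YFPpos cells (log2 -0.30, SE 0.07, edgeR adjusted p = 0.0031). The YFPneg difference was 0.16 (95% interval 0.01 to 0.31; adjusted p = 0.17), and the 2 effects differed by -0.46 (SE 0.10, adjusted p = 0.029). That difference was not called with only the 4 cultured groups in the fit (adjusted p = 0.13), or without any YFPpos SGC0946 library, YFPpos SGC0649 library 62 or 63, or YFPneg SGC0649 library 62 (0.067 to 0.11). YFPpos was 1.67-fold below YFPneg with SGC0946 (adjusted p = 7.2e-08) and 1.21-fold below it with SGC0649 (adjusted p = 0.0045). The SGC0649 call was lost without YFPneg SGC0649 library 61 (adjusted p = 0.096).

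Entpd1 had the largest compound difference of the 10 genes in either sort. It encodes CD39 (ENSMUSG00000048120, chromosome 19, 40612366 to 40741602), and stood at 38.0, 46.8 and 37.5 CPM in YFPpos SGC0946 libraries, 14.7, 8.94 and 6.62 CPM in YFPpos SGC0649 libraries, 13.9, 14.1 and 8.44 CPM in YFPneg SGC0946 libraries, 3.20 and 2.42 CPM in YFPneg SGC0649 libraries and 1.20, 1.62 and 1.99 CPM in naive libraries. The YFPpos SGC0946 libraries were above all others; YFPpos SGC0649 and YFPneg SGC0946 libraries overlapped, and both were above the YFPneg SGC0649 libraries. SGC0946 over SGC0649 was 4.03-fold in YFPpos cells (log2 2.01, SE 0.24, edgeR adjusted p = 2e-05) and 4.34-fold in YFPneg cells (log2 2.12, SE 0.32, adjusted p = 0.0014), a difference between sorts of -0.10 (95% interval -0.94 to 0.73). YFPpos over YFPneg was 3.34-fold with SGC0946 (adjusted p = 1e-05) and 3.59-fold with SGC0649 (adjusted p = 0.0002). None of these calls was lost under any alternative run.

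CD39 is also known from regulatory T cells and macrophages, so their markers are given beside it. Foxp3, the defining factor of regulatory T cells, was at 2.22 to 2.40 CPM in YFPpos SGC0946 libraries, against 11.9 to 21.1 CPM in YFPpos SGC0649 libraries, and at 12.4 to 16.9 CPM in YFPneg SGC0946 libraries, against 28.3 to 32.4 CPM in YFPneg SGC0649 libraries. It was thus lower where Entpd1 was higher, with log2 differences of -2.81 in YFPpos cells (edgeR adjusted p = 1.1e-06) and -1.02 in YFPneg cells (adjusted p = 0.013). The 5 regulatory T cell markers listed include Ctla4 itself and Il2ra, which activated cells express. They summed to 3489 to 3771 CPM in YFPpos SGC0946 libraries, against 3073 to 3187 CPM in YFPpos SGC0649 libraries. The sum in YFPneg libraries was 1388 to 1839 CPM with SGC0946, against 1697 to 1798 CPM with SGC0649. Nrp1 went the other way from Foxp3, with means of 26.9 against 25.2 CPM in YFPpos and 21.7 against 13.2 CPM in YFPneg cells. Ikzf2 averaged 3.03 against 3.41 CPM in YFPpos and 3.33 against 3.53 CPM in YFPneg cells. Il2ra averaged 3151 against 2770 CPM and 1286 against 1450 CPM. The 5 macrophage or monocyte markers summed to 5.19 to 6.36 CPM with SGC0946, against 0.476 to 1.95 CPM with SGC0649, in YFPpos libraries. Itgam made up nearly all of that sum. In YFPpos cells Cd14, Lyz2 and Adgre1 averaged 0.103, 0.097 and 0.069 CPM with SGC0946, against 0, 0.014 and 0.045 CPM with SGC0649. Csf1r went the other way, at 0 CPM with SGC0946 against 0.062 CPM. In YFPneg libraries the same sum was 2.09 to 6.197 CPM with SGC0946, against 0.411 to 1.93 CPM with SGC0649, again mostly Itgam. Cd14, Lyz2 and Adgre1 averaged 0.110, 0.208 and 0.160 CPM with SGC0946 in these libraries, against 0, 0.051 and 0.102 CPM with SGC0649. Csf1r was at 0 against 0.026 CPM. There the 2 CD8+ T cell markers also differed, at 12.2 to 19.7 CPM against 6.503 to 9.51 CPM in sum, mostly Cd8b1. The 5 natural killer markers summed to 11.3 to 12.7 CPM in YFPpos SGC0946 libraries, against 3.44 to 7.42 CPM in YFPpos SGC0649 libraries. In these 2 groups Klre1 averaged 6.89 against 2.52 CPM, Klri2 4.85 against 2.34 CPM and Klrb1c 0.080 against 0.029 CPM. Ncr1 and Klra8 had 0 counts in the YFPpos SGC0946 libraries, against means of 0.058 and 0.014 CPM with SGC0649. The part of other cells in the receptor values was not tested.

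Cd274 encodes PD-L1, the ligand of PD-1, which T cells can themselves display (ENSMUSG00000016496, chromosome 19, 29367455 to 29388095). It was at 60.2, 57.4 and 59.8 CPM in YFPpos SGC0946 libraries, 87.0, 86.1 and 106 CPM in YFPpos SGC0649 libraries, 205, 230 and 304 CPM in YFPneg SGC0946 libraries, 231 and 239 CPM in YFPneg SGC0649 libraries and 44.7, 50.03 and 48.6 CPM in naive libraries. The reporter-negative libraries were above all reporter-positive ones, and among the reporter-positive ones the SGC0946 libraries were the lower, just above naive cells. In YFPpos cells SGC0946 was 1.57-fold below SGC0649 (log2 -0.65, SE 0.11, edgeR adjusted p = 0.00058). The YFPneg difference was 0.07 (95% interval -0.19 to 0.32), and the 2 effects differed by -0.72 (SE 0.17, adjusted p = 0.046). That difference was not called with only the 4 cultured groups in the fit (adjusted p = 0.13), with DESeq2's size factors (0.065), or without any YFPpos SGC0946 library, YFPpos SGC0649 library 62 or 63, or either YFPneg SGC0649 library (0.069 to 0.15). YFPpos was 4.16-fold below YFPneg with SGC0946 (adjusted p = 2.7e-10) and 2.53-fold below it with SGC0649 (adjusted p = 1.9e-07). A non-coding gene, AC119228.1, lies antisense to Cd274.

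Tox was the only one of the 10 genes with its highest level in naive cells. It encodes an HMG-box nuclear factor needed for CD4+ T cell development (ENSMUSG00000041272, chromosome 4, 6686353 to 6991557), and stood at 5.65, 6.95 and 5.43 CPM in YFPpos SGC0946 libraries, 11.8, 12.7 and 13.8 CPM in YFPpos SGC0649 libraries, 25.1, 24.4 and 32.3 CPM in YFPneg SGC0946 libraries, 24.2 and 26.8 CPM in YFPneg SGC0649 libraries and 66.8, 70.8 and 64.3 CPM in naive libraries. The YFPpos groups did not overlap each other or the YFPneg libraries, which overlapped between compounds, and none came near the naive range. SGC0946 was 2.12-fold below SGC0649 in YFPpos cells (log2 -1.09, SE 0.13, edgeR adjusted p = 2.5e-05). The YFPneg difference was 0.09 (95% interval -0.18 to 0.37), and the 2 effects differed by -1.18 (SE 0.19, adjusted p = 0.0053; 4.4e-06 to 0.045 over the alternatives). YFPpos was 4.53-fold below YFPneg with SGC0946 (adjusted p = 5.2e-10) and 2.001-fold below it with SGC0649 (adjusted p = 1.3e-05).

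Tox2, the relative of Tox, was a gene of few reads in every group (ENSMUSG00000074607, chromosome 2, 163203125 to 163324170). Its counts were 19, 15 and 14 in YFPpos SGC0946 libraries, 5, 13 and 8 in YFPpos SGC0649 libraries, 54, 49 and 46 in YFPneg SGC0946 libraries, 46 and 30 in YFPneg SGC0649 libraries and 2, 3 and 2 in naive libraries. The YFPneg libraries were above the YFPpos ones, and the YFPpos groups overlapped. YFPpos was 4.93-fold below YFPneg with SGC0946 (edgeR adjusted p = 0.00016) and 4.90-fold below it with SGC0649 (adjusted p = 0.00087). For SGC0946 over SGC0649 the log2 difference was 0.64 (95% interval -0.35 to 1.63) in YFPpos and 0.65 (-0.26 to 1.56) in YFPneg cells. A decrease of the size seen for Tox in YFPpos cells lies outside the interval of Tox2 there, and an increase of that size lies inside it.

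The comparison of the sorts asks how interferon-gamma producers differed from the cells beside them. With SGC0946, 3 of the 10 genes were higher in YFPpos cells (Ctla4, Havcr2, Entpd1) and 4 lower (Btla, Cd274, Tox, Tox2), where the test called 54.7% of all genes, 26.9% higher and 27.8% lower. With SGC0649, 4 were higher (the same 3 and Pdcd1) and the same 4 lower, where the test called 45.2% of all genes, 23.9% higher and 21.3% lower. A count of 7 or 8 in 10 is thus read against a high background. Ifng itself was 3.26 higher with SGC0946 and 4.45 higher with SGC0649 on the log2 scale.

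**Figure D3:**
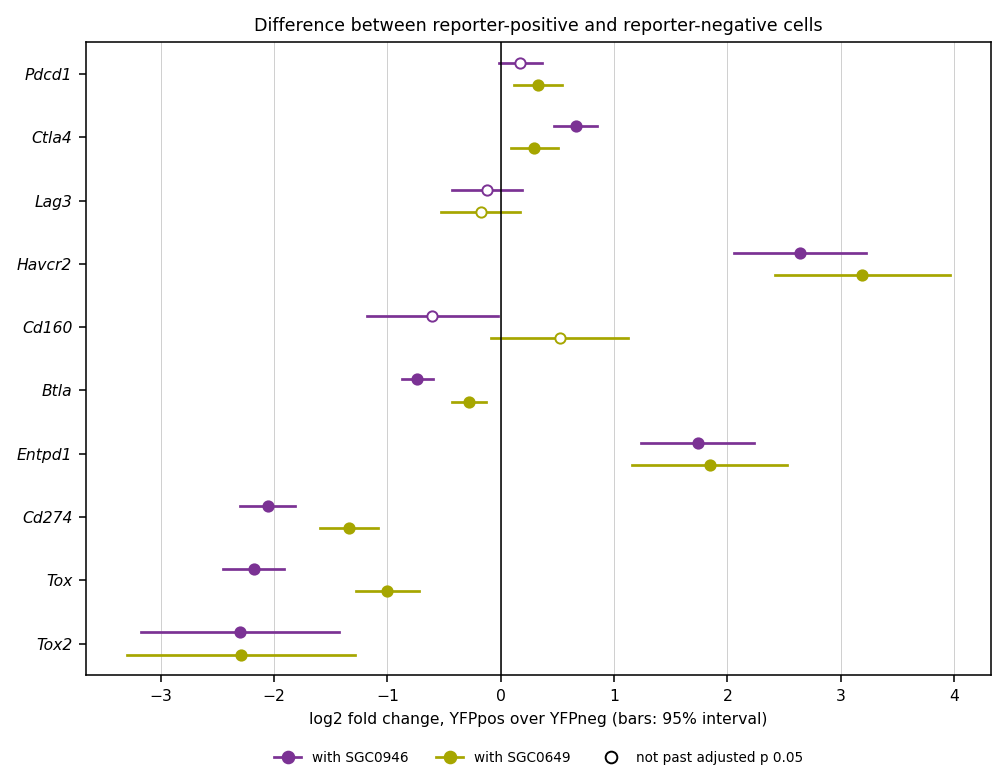
Log2 fold change of YFPpos over YFPneg (x axis) for each of the 10 genes (y axis), with SGC0946 (purple, upper of each pair) and SGC0649 (olive), with 95% intervals; filled points passed an adjusted p of 0.05. Havcr2 lies farthest right, at 2.64 and 3.19, and Cd274, Tox and Tox2 lie left of the other genes with both compounds.

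The cultured groups had more RNA of nearly all the receptors than the naive cells. Starting cells, compound and sort by reporter differed along with culture, so their parts cannot be told apart. Of the 10 genes, 8 were higher and 2 lower in YFPpos SGC0946 cells (80.7% of all genes called, 42.2% higher and 38.5% lower), 8 higher and 1 lower in YFPpos SGC0649 cells (79.8%, 42.6% and 37.3%), 9 higher and 1 lower in YFPneg SGC0946 cells (72.9%, 38.6% and 34.3%) and 8 higher and 1 lower in YFPneg SGC0649 cells (69%, 36.4% and 32.6%). These 4 comparisons share the 3 naive libraries and are not independent, and the share of members called exceeds those backgrounds mainly among the higher genes. Havcr2 totalled 3 counts in naive libraries, and its ratio to them was 944.5 (95% counting interval 323 to 4582) in YFPpos SGC0946 cells, 425.5 (145 to 2065) in YFPpos SGC0649 cells, 156 (53.0 to 759) in YFPneg SGC0946 cells and 46.3 (15.4 to 228) in YFPneg SGC0649 cells. Lag3 was 504-fold, 305-fold, 547-fold and 345-fold above naive cells in the same order. Pdcd1 was 15.1-fold, 14.8-fold, 13.4-fold and 11.7-fold above them, and Ctla4 25.8-fold, 18.8-fold, 16.3-fold and 15.3-fold.

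Tox was lower than in naive cells in all 4 groups, with log2 fold changes of -3.49, -2.40, -1.31 and -1.40 in that order of groups. Btla was lower in YFPpos SGC0946 cells (-0.34, edgeR adjusted p = 0.00012), not called in YFPpos SGC0649 cells (-0.05, 95% interval -0.19 to 0.09), and higher in YFPneg SGC0946 (0.39) and YFPneg SGC0649 cells (0.23, adjusted p = 0.0089), the last lost without YFPneg SGC0649 library 61 (adjusted p = 0.16). Entpd1 passed in all groups but YFPneg SGC0649, where the log2 fold change was 0.80 (95% interval -0.02 to 1.63; adjusted p = 0.077) and passed without the filter, with the DESeq2 Wald test or with only these groups fitted (adjusted p = 0.049, 0.035 and 0.045). Cd274 in YFPpos SGC0946 cells was 1.24-fold above naive cells (adjusted p = 0.022), a call lost without YFPpos SGC0946 library 91, YFPpos SGC0946 library 93 or naive library 1 (adjusted p = 0.052, 0.051 and 0.087). Cd160 in YFPpos SGC0946 cells was 1.83-fold above naive cells (adjusted p = 0.014), a call lost without naive library 3 (0.05) and with limma-voom (0.058). Tox2 in YFPpos SGC0649 cells passed narrowly (adjusted p = 0.041), with the call lost without any naive library (0.05 to 0.11) without YFPpos SGC0649 library 62 or 63 (0.20 and 0.058), without the low-count filter (0.062) and with limma-voom (0.11).

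**Figure D4:**
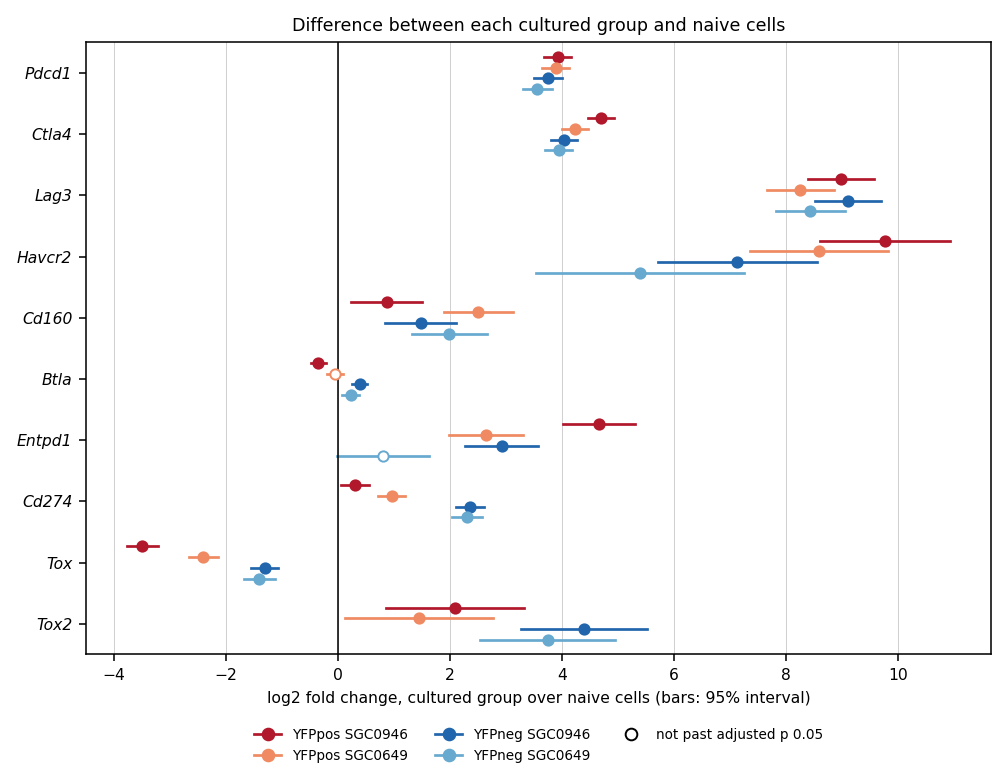
Log2 fold change over naive cells (x axis) of each of the 10 genes (y axis) in the 4 cultured groups, with 95% intervals; filled points passed an adjusted p of 0.05. Havcr2 and Lag3 lie farthest right, between 5.39 and 9.76, and Tox is the one gene left of 0 in all 4 groups.

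Binding partners of these receptors were measured beside them. Of 11 listed ligands and partners, 10 were tested, and in YFPpos cells 2 were higher and 4 lower with SGC0946. Over all genes, 12.1% were called higher and 15.7% lower in YFPpos cells, and 4.99% and 3.64% in YFPneg cells. Lgals3, which encodes galectin-3, a binding partner of LAG-3, was at 268 CPM with SGC0946 and 164 CPM with SGC0649 in YFPpos cells (log2 0.70, edgeR adjusted p = 0.0073), and at 56.9 and 23.0 CPM in YFPneg cells (1.31, adjusted p = 0.0033). Icosl, the ligand of ICOS, was higher in both sorts as well (1.17 and 1.36), and these were the 2 called in YFPneg cells. Pdcd1lg2, which encodes the other PD-1 ligand PD-L2, was lower in YFPpos cells (-0.60, adjusted p = 0.0047), as was Tnfsf14, which encodes the HVEM ligand LIGHT (-0.94, adjusted p = 9.9e-05). Tnfrsf14, which encodes HVEM itself, was 1.52 lower in YFPpos than in YFPneg cells with SGC0946 and 1.49 lower with SGC0649 on the log2 scale. The median of the 10 tested was -0.06 in YFPpos cells, beside -0.04 over all genes.

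Among 13 other inhibitory receptors tested, of 17 names listed, Tigit and Lair1 were higher with SGC0946 in both sorts. Tigit, a receptor of nectin-family ligands, averaged 52.2 CPM against 18.5 CPM in YFPpos cells (log2 1.495, edgeR adjusted p = 1e-05) and 22.7 CPM against 9.17 CPM in YFPneg cells (1.30, adjusted p = 0.0016). Lair1, a collagen receptor, averaged 18.04 CPM against 5.38 CPM in YFPpos cells (1.74) and 7.27 CPM against 3.01 CPM in YFPneg cells (1.26, adjusted p = 0.026). In YFPpos cells 5 of the 13 were lower, led by Cd6 (-0.44) and Cd5 (-0.32), both dampers of T cell receptor signals, and the effect on each differed from that in YFPneg cells (adjusted p = 0.0079 and 0.046). Vsir, which encodes VISTA, was the third called higher in YFPneg cells (0.35, adjusted p = 0.049). The other 10 were not called in YFPneg cells, and over the list the median was -0.13 in YFPpos and 0.18 in YFPneg cells, beside -0.04 and 0.01 over all genes. Of 10 costimulatory receptors, 2 were higher and 4 lower in YFPpos cells, with a median of -0.10. The counts of both lists stand beside 12.1% of all genes higher and 15.7% lower in YFPpos cells, and 4.99% and 3.64% in YFPneg cells. Cd226 was among the lower (-1.49, adjusted p = 0.0002) and Cd28 among the higher (0.38, adjusted p = 0.0019), while 0 of 10 passed in edgeR in YFPneg cells, where 2 had an unadjusted p under 0.05 and the DESeq2 Wald test and limma-voom each called 1. Cd28 came nearest there (0.28, adjusted p = 0.054).

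Of 11 signalling partners of the receptors, all tested, 2 were higher and 2 lower in YFPpos cells, and 0 of 11 were called in YFPneg cells by edgeR, the DESeq2 Wald test or limma-voom, with 1 at an unadjusted p under 0.05 in each (Ptpn11 in edgeR, adjusted p = 0.12). For this list and the next, the background in edgeR was 12.1% of all genes higher and 15.7% lower in YFPpos cells. In YFPneg cells it was 4.99% and 3.64%. Fyn, a Src-family kinase, had 327 CPM with SGC0946 and 444 CPM with SGC0649 in YFPpos cells (-0.44, edgeR adjusted p = 8.3e-06). Ptpn11, which encodes the phosphatase SHP2 that PD-1 recruits, was at 160 against 186 CPM (-0.22, adjusted p = 0.024), and the median of the 11 was -0.06. In the adenosine pathway beside Entpd1, 8 of 9 genes were tested, of which 1 was higher and 2 were lower in YFPpos cells, with a median of -0.06, and 1 was lower in YFPneg cells, with a median of 0.04. Nt5e, which encodes CD73, the next enzyme after CD39, averaged 16.8 CPM with SGC0946 and 21.3 CPM with SGC0649 in YFPpos cells (-0.35, adjusted p = 0.017), the opposite direction to Entpd1, and 36.0 against 34.3 CPM in YFPneg cells (0.07, adjusted p = 0.72). Adora2b, which encodes an adenosine receptor, was higher in YFPpos cells (1.07, adjusted p = 0.032), and the transporter gene Slc29a1 was lower in both sorts (-0.44 and -0.34).

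Cd274 is a known target of interferon-gamma signalling through IRF1, so 10 genes of that signal are given beside it. All 10 were lower in YFPpos than in YFPneg cells with each compound, where the tests called 27.8% of all genes lower with SGC0946 and 21.3% with SGC0649; the medians of the 10 were -0.91 and -0.97, beside 0.01 and 0.04 over all genes. Ifngr2, which encodes a chain of the interferon-gamma receptor, was at 4.96 CPM in YFPpos and 33.1 CPM in YFPneg cells with SGC0946 (-2.73, edgeR adjusted p = 4.9e-11) and 6.47 against 29.3 CPM with SGC0649 (-2.18), and Irf1 at 305 against 754 CPM (-1.30) and 279 against 765 CPM (-1.46). With SGC0946 in YFPpos cells, edgeR called 2 of the 10 higher and 1 lower than with SGC0649, beside 12.1% and 15.7% of all genes. In edgeR 8 of the 10 had an unadjusted p under 0.05 there. The DESeq2 Wald test and limma-voom each called 3 higher and 1 lower. Irf1 had a log2 difference of 0.13 (edgeR adjusted p = 0.22), and Cd274 had -0.65. The part of this signal in the Cd274 values was not tested. In YFPneg cells 0 of 10 passed in edgeR, the DESeq2 Wald test or limma-voom, with 1 at an unadjusted p under 0.05 in each (Socs3 in edgeR, adjusted p = 0.089). The background in edgeR there was 8.63% of all genes. In the test of the sorts against each other 0 of 10 passed with any of the 3 tools, with 3 at an unadjusted p under 0.05 in edgeR. That test called 1.15% of all genes in edgeR, so a count of 0 in 10 is near the background.

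Of 18 tested genes among Tox relatives and transcription factors of exhausted cells, 5 were higher and 7 lower with SGC0946 in YFPpos cells, and 4 were higher and the other 14 not called in YFPneg cells. Beside them, 12.1% of all genes were higher and 15.7% lower in YFPpos cells, and 4.99% and 3.64% in YFPneg cells. Maf rose in both sorts, to 64.1 CPM against 14.1 CPM in YFPpos cells (log2 2.18, edgeR adjusted p = 1.2e-07) and to 25.8 CPM against 7.76 CPM in YFPneg cells (1.74, adjusted p = 0.00018). Prdm1, which encodes Blimp-1, and Id2 were also higher in YFPneg cells (1.30 and 0.58). In the test of the sorts against each other 5 of the 18 passed, all with the more negative effect in YFPpos cells, beside a background of 0.891% of all genes called lower. They were Tcf7, which encodes TCF-1 (-0.92, adjusted p = 0.00075), Nr4a1 (-0.85, adjusted p = 0.00075), Bach2 (-0.81, adjusted p = 0.00082), Eomes (-1.75, adjusted p = 0.02) and Nr4a3 (-0.96, adjusted p = 0.021), the last of which was added after its value was seen. Tcf7 averaged 89.5 CPM with SGC0946 and 154 CPM with SGC0649 in YFPpos cells, against 810 and 734 CPM in YFPneg cells, a pattern by group that runs beside that of Tox. The median over the 18 was -0.19 in this test, beside -0.04 over all genes.

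**Figure D5:**
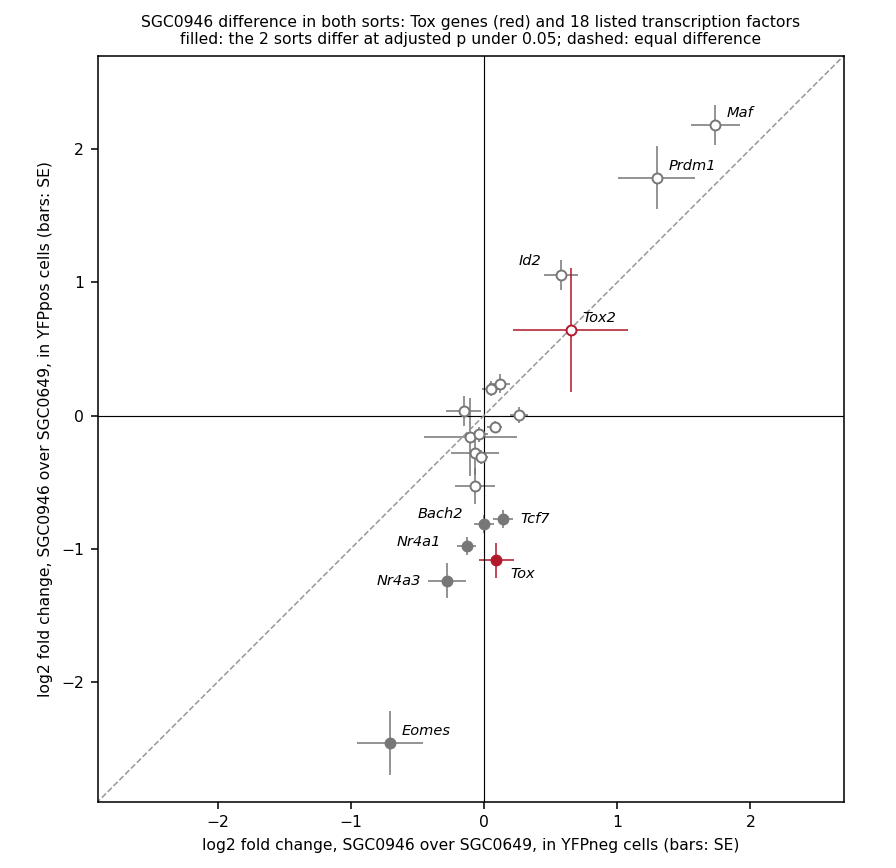
Log2 fold change of SGC0946 over SGC0649 in YFPpos cells (y axis) against that in YFPneg cells (x axis) for Tox and Tox2 (red) and 18 listed transcription factor genes (grey), with SE bars; filled points differed between the sorts at an adjusted p under 0.05, and the dashed line marks equal differences. Tox, Tcf7, Nr4a1 and Bach2 lie near 0 on the x axis and between -0.78 and -1.09 on the y axis, while Maf and Prdm1 lie high on both.

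Across the 11 cultured libraries, 6 of the 10 genes varied as 2 opposed sets, given here as a description without a test, since libraries of a group share their treatment and sort. The log2 CPM of Btla, Cd274 and Tox had Pearson correlations of 0.96 to 0.97 with each other, and Ctla4, Havcr2 and Entpd1 of 0.88 to 0.91. Between the sets the correlations ran from -0.67 for Btla with Entpd1 to -0.94 for Ctla4 with Tox. Tox2 followed the first set less closely (0.74 to 0.83), and Pdcd1 the second (0.68 to 0.82). Lag3 and Cd160 were opposed to each other (-0.89). The gene whose pattern was most like a member was sought among 9212 others whose log2 CPM averaged 3 or more (9213 for Cd160 and Tox2). It was Klrk1 for Havcr2 (0.995), Stk32c and Ccl5 for Entpd1 (0.99 each), Atp1b3 for Cd274 (0.995) and Ncor1 and Cd226 for Tox (0.99 each). Cytip was nearest to Ctla4 (0.99), Sigirr to Lag3 (0.97), Ppp2r1b to Cd160 (0.99), Ascc3 to Btla (0.98), Trim30d to Tox2 (0.97) and Rnpep to Pdcd1 (0.95).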

How the data were processed

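RNA from 14 libraries of mouse CD4+ T cells was sequenced. The authors deposited raw read counts per protein-coding gene, whole numbers without normalization, made with featureCounts on GRCm38 per the submitters' processing notes and counted on the reverse strand per the name the authors gave the table. No source used here names the aligner or the annotation release. The authors also deposited counts of reads per assignment category, from which shares of unmapped reads were taken. Depth, as the sum of counts in a library, was 14486577 to 31614057; counting intervals cover counting error only.

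In R 4.3.3 with edgeR 4.0.16, filterByExpr left 12343 of 22048 genes. TMM factors and one quasi-likelihood model over all 14 libraries gave 9 comparisons without a replicate block, with a common dispersion of 0.00831, a prior count of 0.125 and Benjamini-Hochberg adjustment over all genes tested at 0.05. SE is the absolute log2 fold change over the square root of F. The method was tested on simulated data. Levels are CPM with SD; per-kilobase levels use exon lengths of GENCODE M21, which holds 21858 of the table's gene IDs. Positions are from that annotation.

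The 10 genes, the other lists and the rule for named genes (all 10 genes in every group, up to 4 called genes of each list by smallest p, and the nearest genes by correlation) were chosen with earlier results of these data known; other genes named, as nearest to the threshold or for their role, were picked with their values in view. One listed gene and one motif are not reported here. The fit was repeated with DESeq2 1.42.0 (its size factors, and its Wald test), limma-voom 3.58.1, no filter, only the groups compared, a replicate block and each library left out.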

Additional observations from a re-analysis of the deposited data

Results flagged for a closer look

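For 3 of the 10 genes the SGC0946 effect differed between the sorts in the test of that difference, on the log2 scale and as YFPpos minus YFPneg: Tox by -1.18 (SE 0.19, edgeR adjusted p = 0.0053), Cd274 by -0.72 (SE 0.17, adjusted p = 0.046) and Btla by -0.46 (SE 0.10, adjusted p = 0.029). The same test called 1.15% of all genes. Each of the 3 genes was lower with SGC0946 in all 3 YFPpos libraries than in every YFPpos SGC0649 library. Between the compounds in YFPpos cells, 8 of the 10 genes had libraries without overlap, and edgeR called 27.7% of all genes. The share of all genes without overlap was not computed. In YFPneg cells the SGC0946 and SGC0649 libraries overlapped for Tox and Cd274, and those of Btla were all higher with SGC0946. Over the alternatives the adjusted p of the difference ranged from 4.4e-06 to 0.045 for Tox, from 0.0096 to 0.15 for Cd274 and from 0.0038 to 0.21 for Btla. The share of unmapped reads was 3.61% to 8.12% in YFPpos SGC0946 libraries, 6.44% to 8.35% in YFPpos SGC0649 libraries and 3.14% to 4.62% in YFPneg libraries, and its part in these values was not tested.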

How the results depend on the processing

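Among 10 genes in 9 comparisons, no called direction reversed under any alternative. Signs turned only for uncalled values. The difference between sorts of Tox2, near 0 in the fit reported, was 0.034 with DESeq2 size factors, 0.0082 without the filter, 0.041 with the DESeq2 Wald test and 0.024 with only the groups compared, and -0.34 to 0.46 with a library left out. With a library left out, that of Lag3 ranged from -0.11 to 0.29 and that of Entpd1 from -0.33 to 0.27. Likewise, with a library left out, the SGC0946 effect in YFPneg cells ranged from -0.11 to 0.18 for Cd274 and from -0.042 to 0.17 for Tox, in YFPpos cells from -0.020 to 0.075 for Pdcd1, and Btla in YFPpos SGC0649 against naive cells from -0.13 to 0.014. The DESeq2 Wald test called 1615 genes in YFPneg cells between compounds (1065 in the fit reported), 703 of them lower (449), and 301 between sorts (142), 121 higher (32) and 180 lower (110). Only the groups compared called 2584 genes higher in YFPpos cells (1490), and 199 in YFPneg cells, 161 higher (616) and 38 lower, and 56 between sorts, 16 higher and 40 lower, with 1 member (3). Without the filter 57 were higher between sorts. With a replicate block the numbers gave 63 genes lower between sorts (110), 1 member lower (3) and -0.061 for Lag3; the differences of Btla and Cd274 were not called under it (adjusted p = 0.21 and 0.058), nor was Pdcd1 between the sorts with SGC0649 (0.057). Same-numbered libraries of the 2 sorts had correlations of deviations of 0.147 and 0.036 (SGC0649) and 0.111, 0.078 and 0.041 (SGC0946). Not all passed 0.1, so the numbers were not taken as pairs, and these values cannot decide whether they are. Each SGC0946 library correlated best with its own number. YFPneg SGC0649 has 2 libraries, whose deviations from their mean mirror each other by construction. Library 62 there correlated at 0.036 with YFPpos library 62 and at 0.115 with YFPpos library 63. These only restate the values of library 61 with the sign turned, and number 63 has no YFPneg library here. With one library left out, genes called ranged from 1886 to 3449 between compounds in YFPpos cells (867 to 1489 higher, 1019 to 1960 lower; lowest without YFPpos SGC0649 library 63, and 2004 without YFPpos SGC0946 library 92) and from 335 to 1520 in YFPneg cells (191 to 916 higher, 144 to 616 lower; lowest without YFPneg SGC0649 library 62), with 1 to 3 members higher. Between sorts they ranged from 61 to 241 (10 to 66 higher, 49 to 175 lower), with 1 to 4 members lower. Members higher in YFPpos than in YFPneg SGC0649 cells ranged from 2 to 4. The cause of these moves was not tested, beyond the fewer libraries in the reduced fits. Low counts limit Cd160, Tox2 and, in YFPneg SGC0649 and naive cells, Havcr2 and Entpd1.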
